A study of Caenorhabditis elegans with 15 samples.

Results

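Overexpression of a secreted protein adds cargo to the endoplasmic reticulum (ER), and the genes described here encode the machinery that folds such cargo there: hsp-3, hsp-4, enpl-1, crt-1, pdi-1, pdi-2, pdi-3, pdi-6 and dnj-27, together with xbp-1, a transcription factor of the unfolded protein response. These 10 genes of the 46929 in the deposited table were chosen by name, and each RefSeq symbol matched a single locus tag. The libraries are poly(A) RNA of whole Caenorhabditis elegans, 5 for each of 3 genotypes. The series asked how the animal's transcriptome responds to ACP7 from the gut. Wild type is N2. ACP7 OE (strain ABR275) overexpresses F21A3.11, the gene for the secreted phosphatase ACP7, in the intestine, from the promoter of the gut esterase gene ges-1 (ges-1p). The construct goes on with SL2WormScarlet, a red fluorescent reporter on the same transcript, and the 3'UTR of unc-54. ACP7-7A OE (strain ABR484) carries F21A3.11-7A, the catalytically dead form by its label, in the same design. Both controls and overexpression animals were sampled whole, so RNA of the intestine is diluted by that of other tissues. A single strain was named for each construct, so construct and strain background cannot be told apart. Age is not given in the sources used here, nor is culture, nor whether libraries of a group came from separate cultures, so that p-values measure the spread between these libraries, which may be technical.

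When unfolded protein accumulates in the ER, the sensors ire-1, pek-1 and atf-6 are activated. The nuclease activity of IRE-1 removes an intron from xbp-1 mRNA, and the spliced form encodes the active factor, which raises transcription of chaperone genes. In C. elegans hsp-4, 1 of the genes for the Hsp70-type chaperone BiP, is the usual reporter of this response, and its paralog hsp-3 is expressed at a higher basal level. The counts are per gene, so spliced and unspliced xbp-1 mRNA were not separated.

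The constructs were strongly expressed and the folding genes moved little. F21A3.11 had 13 to 16.6 CPM in wild type, 576 to 645 CPM with ACP7 OE and 1072 to 1549 CPM with ACP7-7A OE, where CPM are counts per 1e6 counts after TMM scaling, a correction for library composition. WormScarlet RNA had 0 counts in wild type and 798 to 964 CPM with ACP7 OE, against 1580 to 2359 CPM with ACP7-7A OE. F21A3.11 was 40.6-fold higher with ACP7 OE than in wild type (log2 fold change 5.34, SE 0.114) and 90.7-fold higher with ACP7-7A OE (log2 fold change 6.50, SE 0.119). Of the 10 ER genes, 0 changed with ACP7 OE against wild type, where 2.68% of the 15725 genes tested did (1.48% higher and 1.2% lower). Against wild type 1 rose with ACP7-7A OE (pdi-1), where 6.86% of all genes changed (2.66% higher and 4.2% lower). Between the constructs 1 was lower with ACP7 OE (dnj-27), where 8.56% of all genes differed (4.79% higher and 3.76% lower with ACP7 OE). These comparisons share libraries in pairs, so none is independent of the other two. A gene is said to have changed at a Benjamini-Hochberg adjusted p under 0.05 in edgeR's quasi-likelihood test over all genes. All 10 genes passed the filter on low counts. The first of these counts depended on which libraries were used. Without 3 libraries described below, 6 of the 10 genes changed with ACP7 OE against wild type, where 15% of all genes did. Their log2 fold changes ran from -0.23 to 0.12. No ACP7 OE library was among the 3 left out, so that count depends on a one-sided choice.

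The test was precise for these genes. Their standard errors on the log2 scale had a median of 0.057 in each comparison, and their counts ran from 1224 for dnj-27 to 54446 for crt-1 in a library. The 95% intervals, each for a single gene and unadjusted, ended at no more than 1.16-fold of wild type with ACP7 OE and 1.23-fold with ACP7-7A OE. Downward they reached 0.776-fold with ACP7 OE, for dnj-27, and 0.886-fold with ACP7-7A OE. The median log2 fold change of the 10 genes was -0.05 with ACP7 OE and 0.03 with ACP7-7A OE, and their median absolute change was 0.08 and 0.04. Over all genes tested the median absolute change was 0.15 and 0.18. At an unadjusted p under 0.05, 2 of the 10 genes differed between ACP7 OE and wild type, dnj-27 and hsp-3, both lower. DESeq2 called 0 of the 10 in that comparison, where it called 723 of all genes. The share of all genes at an unadjusted p under 0.05 was not taken. Counts at that threshold, here and below, therefore have no background beside them and are not read as more or fewer than usual.

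**Figure D1:**
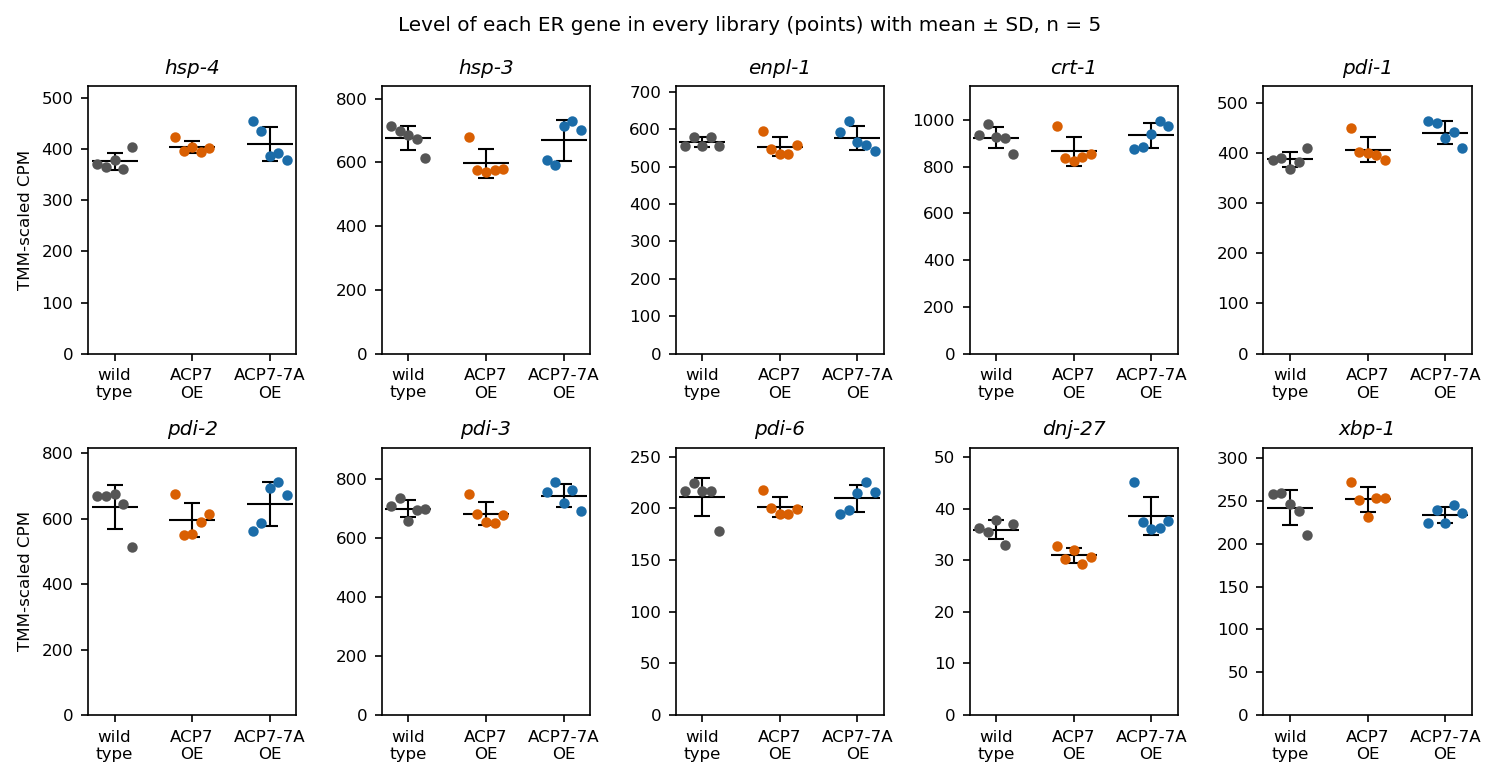
TMM-scaled CPM of each of the 10 ER genes in every library (points), with the group mean and SD (black, n = 5) and axes from 0. The groups overlap for 9 genes in every comparison. The 5 points of dnj-27 with ACP7 OE, 29.2 to 32.8 CPM, lie below those of both other groups.

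Totals ran from 39050495 to 49452773 counts in wild type, 39180648 to 58077047 with ACP7 OE and 41696722 to 50869260 with ACP7-7A OE. Some libraries stood apart from the rest of their group in the tissue markers that whole-worm RNA carries. Body wall muscle markers summed to 3579 CPM in wild-type library 5, while libraries 1 to 4 of that group had 4789 to 5075 CPM. They summed to 3411 and 3994 CPM in ACP7-7A OE libraries 1 and 2, against 5613 to 5941 in libraries 3 to 5. With ACP7 OE they summed to 3608 to 4076 CPM in libraries 2 to 5 and 4621 CPM in library 1. All 12 muscle and all 10 pharynx markers had point estimates below wild type with ACP7 OE, where 0 and 1 of them passed. Of the 12 muscle markers, all had counts in every library, as did all 12 intestine and all 15 germline and oocyte markers. In bulk RNA, fewer cells of a type and less RNA per cell cannot be told apart. Intestine markers summed to 3814 to 5277 CPM in wild type, 4970 to 6007 CPM with ACP7 OE and 3759 to 4379 CPM with ACP7-7A OE. With ACP7-7A OE 3 of the 12 fell, where 4.2% of all genes did. All 12 point estimates were below wild type there, with a median log2 fold change of -0.21. With ACP7 OE 0 of the 12 passed, 6 point estimates were above wild type and 6 below, and the median log2 fold change was 0.01. Sperm markers summed to 78.5 to 117 CPM in wild type, 151 to 224 CPM with ACP7 OE and 50.8 to 162 CPM with ACP7-7A OE, and neuron markers to 294 to 372 CPM over all libraries. All 12 neuron markers and 16 of the 18 sperm markers had counts in every library, with ssp-9 and spe-38 at 0 in some. Results that rest on wild-type library 5 or ACP7-7A OE libraries 1 and 2, called below the 3 libraries that stood apart, are given with and without them. This choice was one-sided, since ACP7 OE libraries 2 to 5 were kept at muscle sums of 3608 to 4076 CPM. hsp-3, crt-1, pdi-2 and pdi-6 were lower in the 3 libraries than in the others of their groups. Leaving the 3 out raises these genes in the groups that ACP7 OE is compared with. Calls gained that way are no separate support.

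Per kilobase of exon, the scale on which levels of different genes can be set side by side, the ER genes spanned a wide range in wild type. crt-1, for the calcium-binding lectin chaperone calreticulin, was highest at 660 ± 32.9 CPM per kb (SD, n = 5). pdi-3 followed at 412 ± 16.6, pdi-2 at 335 ± 36.0, hsp-3 at 286 ± 16.3 and pdi-1 at 245 ± 9.63 CPM per kb. Next were enpl-1 at 213 ± 5.12, hsp-4 at 174 ± 7.80, xbp-1 at 168 ± 13.9, pdi-6 at 128 ± 11.1 and dnj-27 at 14.4 ± 0.755 CPM per kb. Neighbours in this order overlapped between pdi-2 and hsp-3, between hsp-3 and pdi-1, and between hsp-4 and xbp-1. On the same scale F21A3.11 went from 9.57 ± 0.970 in wild type to 388 ± 19 with ACP7 OE and 868 ± 146 CPM per kb with ACP7-7A OE. By this measure its RNA stood near that of pdi-3 with ACP7 OE (402 ± 23.7) and above crt-1 with ACP7-7A OE (667 ± 38.4). WormScarlet, on the same transcript, had 1244 ± 87.2 CPM per kb with ACP7 OE and 2904 ± 532 with ACP7-7A OE, above every ER gene. F21A3.11 was scaled by the deposited exonic length of 1571 bases, though the construct carries the 3'UTR of unc-54. The place of the transgene RNA among the ER genes thus depends on the part measured. The 10 ER genes together took 0.449% to 0.497% of the counts in wild-type libraries, 0.448% to 0.488% with ACP7 OE and 0.461% to 0.513% with ACP7-7A OE, and these ranges overlap.

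**Figure D2:**
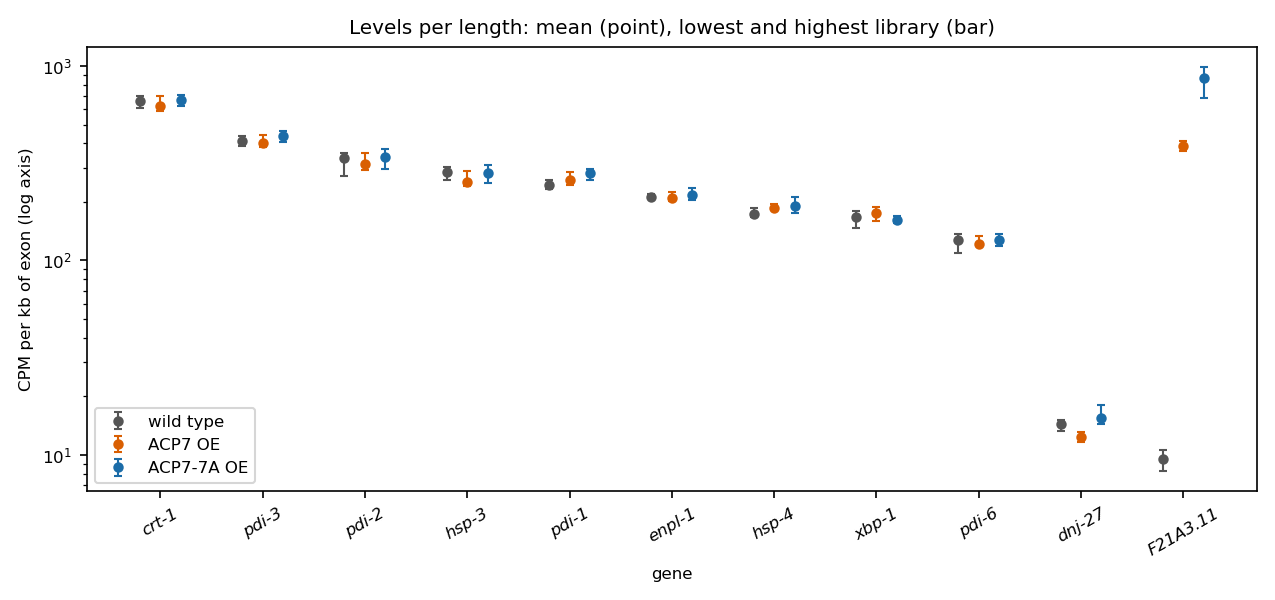
CPM per kilobase of exon on a log axis for the 10 ER genes, ordered by wild-type level, and for the transgene-encoded F21A3.11, with the mean (point) and the lowest and highest library (bar) of each group. F21A3.11 moves from 9.57 to 388 and 868 CPM per kb, while each ER gene keeps nearly the same level in the 3 groups.

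hsp-4 (chromosome II, 7350112 to 7352518, minus strand, WBcel235) had 371, 366, 379, 362 and 405 CPM in wild-type libraries 1 to 5. It had 425, 397, 404, 396 and 403 CPM with ACP7 OE and 456, 437, 387, 393 and 380 CPM with ACP7-7A OE. Both overexpression groups were slightly higher on average, wild-type library 5 lay inside the range of each, and the highest values were those of ACP7-7A OE libraries 1 and 2. Neither difference from wild type passed: the log2 fold change was 0.10 with ACP7 OE (95% interval -0.01 to 0.22, edgeR adjusted p = 0.35) and 0.13 with ACP7-7A OE (0.01 to 0.24, adjusted p = 0.17). The active and the catalytically dead construct differed by -0.02 (-0.13 to 0.09, adjusted p = 0.87). Without wild-type library 5 and ACP7-7A OE libraries 1 and 2 the higher hsp-4 level with ACP7 OE passed at about the same size (log2 fold change 0.12, adjusted p = 0.026, against 0.026 to 0.55 over 24 alternative settings), while that with ACP7-7A OE was 0.06 (adjusted p = 0.39). Without these 3 libraries 15% of all genes tested changed between ACP7 OE and wild type, and 10.7% between ACP7-7A OE and wild type.

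hsp-3 (chromosome X, 6089033 to 6091785, minus strand), the other BiP gene, leaned the opposite way with ACP7 OE. It had 714, 697, 685, 674 and 613 CPM in wild type, 680, 577, 571, 576 and 579 CPM with ACP7 OE, and 608, 593, 715, 730 and 702 CPM with ACP7-7A OE. ACP7 OE libraries 2 to 5 lay below every wild-type library, and ACP7 OE library 1 lay within the wild-type range. The log2 fold change of ACP7 OE against wild type was -0.18 (95% interval -0.32 to -0.05, adjusted p = 0.14). It passed when wild-type library 5 or ACP7 OE library 1 was left out (-0.23 in each case, adjusted p = 0.046 and 0.042), and without the 3 libraries that stood apart (-0.23, adjusted p = 0.00037). Over the 24 settings its adjusted p ran from 0.00037 to 0.38. With ACP7-7A OE the log2 fold change was -0.02 (-0.15 to 0.12, adjusted p = 0.92). The difference between the constructs was -0.17 (-0.30 to -0.03, adjusted p = 0.12), and it passed without the 3 libraries (-0.27, adjusted p = 0.00012), without ACP7 OE library 1 (-0.22, adjusted p = 0.022) and without ACP7-7A OE library 2 (-0.21, adjusted p = 0.042), the range over all settings being 0.00012 to 0.25.

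The ratio of hsp-4 to hsp-3 counts, which needs no scaling between libraries, was chosen after the values were seen and is given as a description. It was 0.519, 0.526, 0.553, 0.537 and 0.660 in wild type and 0.626, 0.688, 0.708, 0.687 and 0.696 with ACP7 OE. With ACP7-7A OE it was 0.750 and 0.736 in libraries 1 and 2 and 0.542, 0.538 and 0.542 in libraries 3 to 5. The ratio was thus higher with ACP7 OE than in wild-type libraries 1 to 4, with wild-type library 5 inside the ACP7 OE range. It was also high in 2 libraries of the catalytically dead construct. The libraries with the highest ratios had low muscle-marker sums, 3411 and 3994 CPM in ACP7-7A OE libraries 1 and 2, 3608 to 4076 CPM in ACP7 OE libraries 2 to 5 and 3579 CPM in wild-type library 5. The part of tissue makeup in the ratio was not tested. ACP7-7A OE libraries 1 and 2 also had the lower F21A3.11 levels of their group, 1072 and 1161 CPM against 1496 to 1549 CPM. The same 2 libraries thus had less F21A3.11 RNA, lower muscle-marker sums and more hsp-4. A relation of hsp-4 to the level of F21A3.11 RNA was not tested.

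**Figure D3:**
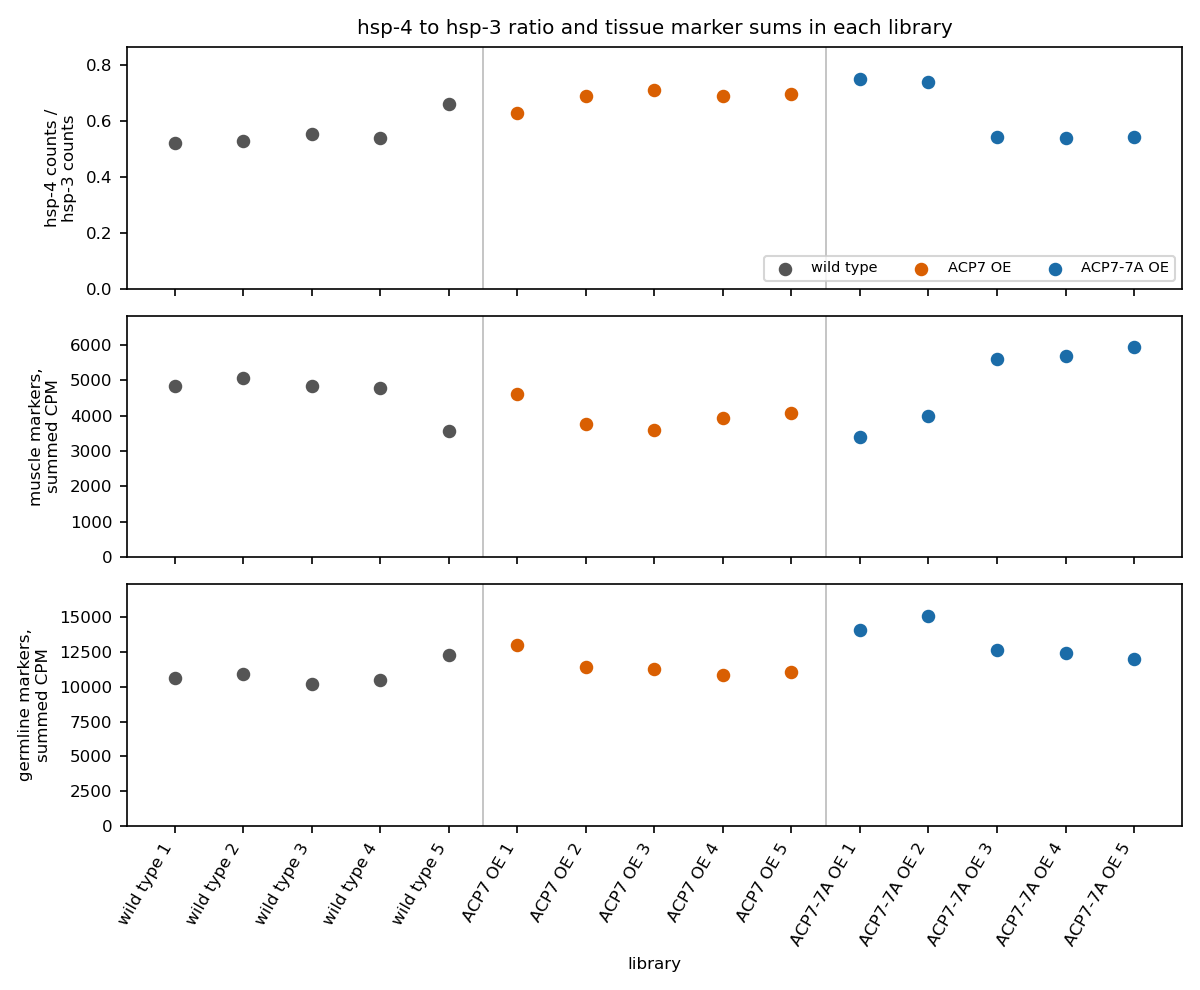
Ratio of hsp-4 to hsp-3 counts (top), summed CPM of 12 body wall muscle markers (middle) and of 15 germline and oocyte markers (bottom) in each of the 15 libraries, with axes from 0. The ratio is 0.626 to 0.750 in wild-type library 5, the 5 ACP7 OE libraries and ACP7-7A OE libraries 1 and 2, and 0.519 to 0.553 in the other 7 libraries.

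enpl-1 (chromosome IV, 11119298 to 11123155, plus strand) encodes endoplasmin, the Hsp90-type chaperone of the ER. It was the steadiest of the 10 genes, with a within-group SD of 0.062 on the log2 scale, the 5.48th percentile among 5054 genes at a log2 CPM of 5 or more. It had 555, 581, 556, 580 and 557 CPM in wild type, 595, 547, 533, 535 and 558 CPM with ACP7 OE and 592, 623, 566, 559 and 543 CPM with ACP7-7A OE. The groups overlapped throughout. The log2 fold changes against wild type were -0.03 with ACP7 OE (95% interval -0.13 to 0.07, adjusted p = 0.81) and 0.03 with ACP7-7A OE (-0.07 to 0.13, adjusted p = 0.79). Its exons overlap those of spo-11 on the other strand, a meiotic recombination gene at 29.4 ± 1.87 CPM in wild type. The strand setting of the counting is not given in the sources used here, so reads of such a pair cannot be told apart.

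crt-1 (chromosome V, 6098992 to 6100542, minus strand) had 937, 983, 929, 921 and 854 CPM in wild type, 976, 838, 823, 842 and 855 CPM with ACP7 OE and 875, 885, 942, 996 and 976 CPM with ACP7-7A OE. As with hsp-3, ACP7 OE library 1 was apart from the other ACP7 OE libraries, which lay near or below the lowest wild-type value. The log2 fold change was -0.09 with ACP7 OE (95% interval -0.21 to 0.02, adjusted p = 0.42) and 0.02 with ACP7-7A OE (-0.10 to 0.13, adjusted p = 0.90). Without the 3 libraries that stood apart crt-1 was lower with ACP7 OE (-0.14, adjusted p = 0.027, against 0.027 to 0.72 over all settings). smut-1, at 72.7 ± 7.87 CPM in wild type, overlaps its exons on the other strand.

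Protein disulfide isomerases form and rearrange disulfide bonds of secreted proteins. pdi-1 (chromosome III, 3699739 to 3701461, minus strand) had 385, 390, 368, 383 and 410 CPM in wild type, 450, 401, 400, 396 and 385 CPM with ACP7 OE, and 464, 460, 430, 441 and 409 CPM with ACP7-7A OE. It rose with ACP7-7A OE, where the log2 fold change was 0.19 (SE 0.053, 95% interval 0.08 to 0.30, adjusted p = 0.035), with 4 of 5 libraries above every wild-type library. This call was lost when any of 8 libraries was left out (adjusted p = 0.05 to 0.11), namely wild-type libraries 1 to 4 and ACP7-7A OE libraries 1 to 4, though the log2 fold change stayed between 0.17 and 0.21 whichever library was left out. Over all 24 alternatives its adjusted p ran from 0.0056 to 0.11, and it was called in 15. With ACP7 OE the log2 fold change was 0.07 (-0.04 to 0.18, adjusted p = 0.55). The difference between the constructs, -0.12 (-0.23 to -0.01), did not pass (adjusted p = 0.18), though it did without ACP7 OE library 1 (-0.16, adjusted p = 0.045, against 0.045 to 0.34 over all settings). Groups without overlap occurred for 5.04% of all genes between ACP7-7A OE and wild type, and pdi-1 was not among them.

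pdi-2 (chromosome X, 4524155 to 4526536, plus strand) encodes an isomerase that also serves as a subunit of the prolyl 4-hydroxylases that modify collagen. It had the largest spread of the 10 genes, with a within-group SD of 0.148 on the log2 scale, the 82.9th percentile among the same 5054 genes. Its level was 669, 670, 676, 646 and 515 CPM in wild type, 675, 551, 552, 589 and 614 CPM with ACP7 OE and 562, 588, 695, 711 and 671 CPM with ACP7-7A OE. Wild-type library 5 was the lowest of all 15 libraries, and the groups overlapped. The log2 fold changes against wild type were -0.09 (95% interval -0.25 to 0.07, adjusted p = 0.62) and 0.02 (-0.14 to 0.19, adjusted p = 0.90). Cuticle and hypodermis markers, all 12 of them collagen genes, summed to 5085 CPM in wild-type library 5 against 7015 to 8050 CPM in the other wild-type libraries. They summed to 5539 to 6406 CPM with ACP7 OE. In ACP7-7A OE libraries 1 and 2 they summed to 3570 and 3908 CPM against 6807 to 7137 CPM in libraries 3 to 5. In each overexpression group 6 of these markers had point estimates above wild type and 6 below, so the sums do not stand for all 12 markers. Their part in the level of pdi-2 was not tested. Of the 12 cuticle markers, rol-6 and sqt-1 had 0 counts in some library. C07A12.19, too low in counts to be tested, overlaps the exons of pdi-2. Without the 3 libraries that stood apart, pdi-2 was lower with ACP7 OE than in wild type (-0.17, adjusted p = 0.0088) and than with ACP7-7A OE (-0.23, adjusted p = 0.0018). Over all settings these adjusted p ran up to 0.85 and 0.65.

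pdi-6 (chromosome X, 7066342 to 7068563, minus strand) followed the same libraries at a lower level. It had 217, 224, 217, 217 and 178 CPM in wild type, 218, 200, 194, 194 and 199 CPM with ACP7 OE and 194, 198, 215, 225 and 216 CPM with ACP7-7A OE. The log2 fold changes against wild type were -0.07 (95% interval -0.19 to 0.06, adjusted p = 0.65) and -0.01 (-0.14 to 0.12, adjusted p = 0.96). pdi-3 (chromosome I, 7015912 to 7020797, minus strand) did not share that pattern, with 710, 738, 659, 697 and 698 CPM in wild type, 752, 683, 655, 652 and 678 CPM with ACP7 OE and 757, 790, 719, 763 and 692 CPM with ACP7-7A OE. Its log2 fold changes were -0.03 (-0.14 to 0.07, adjusted p = 0.80) and 0.09 (-0.02 to 0.20, adjusted p = 0.32). Between the constructs it differed by -0.12 (-0.23 to -0.01, adjusted p = 0.16), or by -0.16 without ACP7 OE library 1 (adjusted p = 0.043, against 0.043 to 0.30 over all settings). pdi-6 was also lower with ACP7 OE than in wild type without the 3 libraries that stood apart (-0.13, adjusted p = 0.022, against 0.022 to 0.85 over all settings).

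dnj-27 (chromosome I, 11877803 to 11887278, plus strand) encodes an ER protein with a J domain, which partners Hsp70-type chaperones, and thioredoxin-like domains. It was the only gene of the 10 whose libraries separated by group. It had 36.3, 35.5, 37.9, 33.0 and 37.1 CPM in wild type, 32.8, 30.3, 31.9, 29.2 and 30.6 CPM with ACP7 OE and 45.1, 37.5, 36.1, 36.3 and 37.7 CPM with ACP7-7A OE. Every ACP7 OE library lay below every library of both other groups, by a narrow margin against wild type. Groups without overlap occurred for 6.73% of all genes tested between ACP7 OE and wild type and for 7.08% between the constructs. dnj-27 was lower with ACP7 OE than with ACP7-7A OE. The log2 fold change was -0.32 (SE 0.073, 95% interval -0.47 to -0.16, adjusted p = 0.0074), and the call held in all 24 alternative settings (adjusted p = 0.00093 to 0.028). Against wild type the change of -0.22 with ACP7 OE did not pass (-0.37 to -0.07, adjusted p = 0.12), but it did without the 3 libraries that stood apart (-0.22, adjusted p = 0.024, against 0.024 to 0.25 over all settings). With ACP7-7A OE the change was 0.10 (-0.05 to 0.25, adjusted p = 0.43).

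xbp-1 (chromosome III, 4193809 to 4195358, plus strand) had 258, 260, 247, 238 and 210 CPM in wild type, 272, 251, 231, 254 and 254 CPM with ACP7 OE and 224, 240, 224, 246 and 236 CPM with ACP7-7A OE. The 3 groups overlapped. The log2 fold change was 0.06 with ACP7 OE (95% interval -0.07 to 0.18, adjusted p = 0.69), -0.05 with ACP7-7A OE (-0.17 to 0.07, adjusted p = 0.64) and 0.11 between the constructs (-0.01 to 0.23, adjusted p = 0.28).

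**Figure D4:**
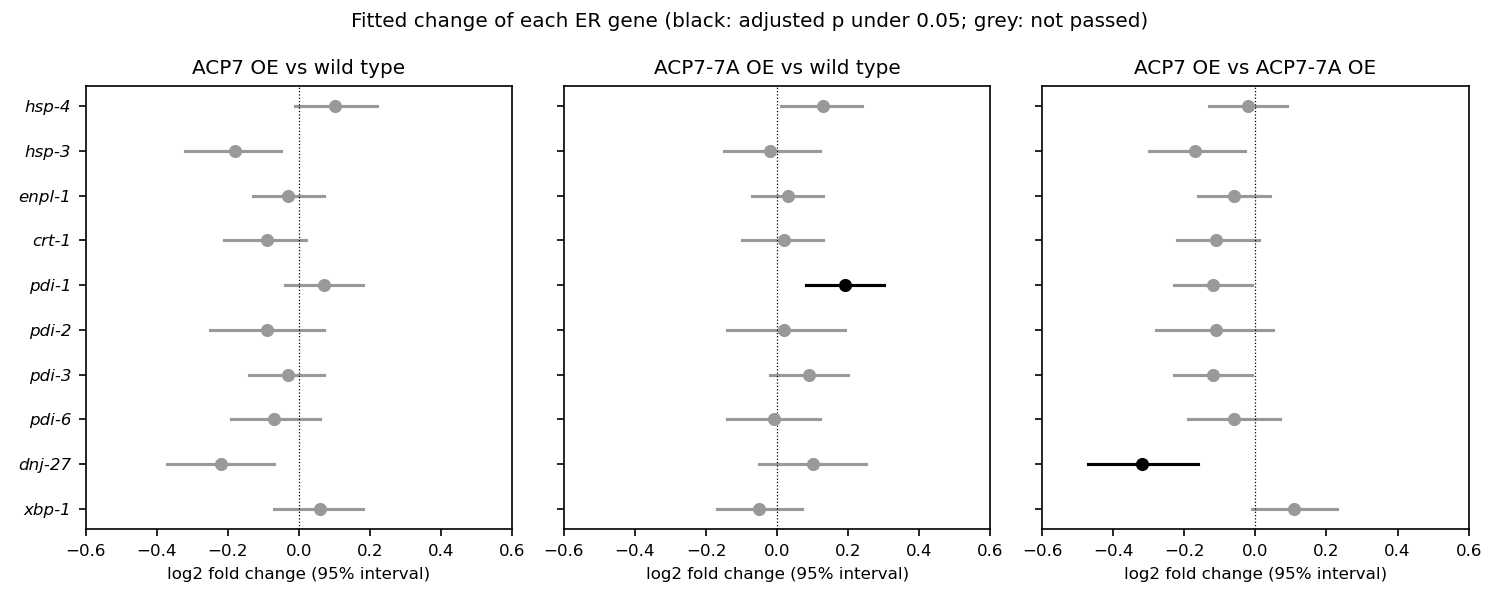
Fitted log2 fold change of each ER gene (points) with its 95% interval (lines) in the 3 comparisons, black where the adjusted p was under 0.05. Only pdi-1 with ACP7-7A OE against wild type (0.19) and dnj-27 between the constructs (-0.32) are black, and no interval reaches beyond 0.30 upward or -0.47 downward.

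The 10 genes did not move as a block from library to library. In wild-type library 5, pdi-2, pdi-6, xbp-1, hsp-3 and crt-1 were the lowest of their group, whereas hsp-4 and pdi-1 were the highest. ACP7 OE library 1 had the highest value of its group for all 10 genes. In ACP7-7A OE libraries 1 and 2, hsp-3, pdi-2, pdi-6 and crt-1 were lower and hsp-4 and pdi-1 higher than in each of libraries 3 to 5. Without those 2 libraries and wild-type library 5, 6 of the 10 genes passed between ACP7 OE and wild type: hsp-3, crt-1, pdi-2, pdi-6 and dnj-27 were lower and hsp-4 was higher, by log2 fold changes from -0.23 to 0.12. In the same setting 5 passed between the constructs, the same genes except hsp-4, all lower with ACP7 OE, and 1 with ACP7-7A OE against wild type, pdi-1 (0.16, adjusted p = 0.029). Of all genes tested, 13.6% differed between the constructs there.

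**Figure D5:**
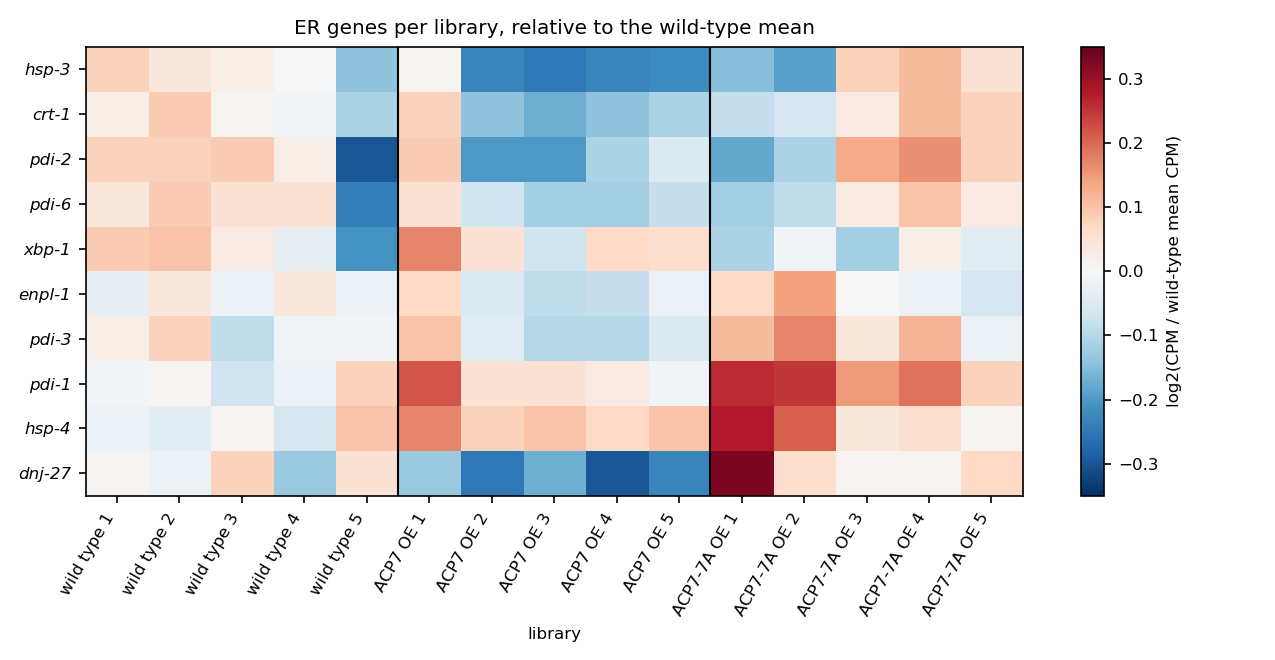
log2 of each ER gene's CPM over its wild-type mean in each of the 15 libraries (columns, in 3 groups of 5), with red higher and blue lower. hsp-3, crt-1, pdi-2 and pdi-6 are blue in wild-type library 5, ACP7 OE libraries 2 to 5 and ACP7-7A OE libraries 1 and 2, where hsp-4 is red.

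Over the 15 libraries the genes whose log2 CPM was most like that of hsp-4, among 10569 genes averaging 1 or more on that scale, were glh-4, ife-3, dvc-1, rpn-5, pgm-3, sun-1, cey-3, mtm-9, B0212.3 and cct-4 (Pearson r = 0.948 to 0.932, as a measure of likeness). glh-4 encodes a germline helicase of P granules, and is among the 15 germline markers, with 168 ± 13.3 CPM in wild type, 181 ± 8.08 CPM with ACP7 OE and 194 ± 22.5 CPM with ACP7-7A OE (SD, n = 5). sun-1 encodes a nuclear envelope protein of meiotic germ cells. The other ER genes ranked far lower in likeness to hsp-4: pdi-1 had r = 0.779, and hsp-3 had r = -0.526. The 15 germline and oocyte markers summed to 12259 CPM in wild-type library 5 and 14114 and 15122 CPM in ACP7-7A OE libraries 1 and 2, against 10172 to 10898 CPM in wild-type libraries 1 to 4 and 12038 to 12622 CPM in ACP7-7A OE libraries 3 to 5. Wild-type library 5, ACP7-7A OE libraries 1 and 2 and ACP7 OE library 1 (13034 CPM) had the highest sums and the highest hsp-4 of their groups. In the rest of wild type hsp-4 did not follow the sums. Library 3 had the lowest sum with hsp-4 at 379 CPM, and library 2 had 10898 CPM with hsp-4 at 366 CPM. Between groups the order differed: ACP7 OE libraries 2 to 5 had germline sums of 10830 to 11445 CPM, below those of ACP7-7A OE libraries 3 to 5, with hsp-4 at 396 to 404 CPM against 380 to 393 CPM. The part of germline RNA in the level of hsp-4 was not tested.

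Beyond these 10 genes, 6 lists of the ER pathway were examined, 74 names in all, of which 73 matched the table and 65 passed the filter on low counts. Of those 65, 0 rose and 2 fell with ACP7 OE against wild type, 1 rose and 2 fell with ACP7-7A OE, and 0 differed between the constructs, where 11 had an unadjusted p under 0.05 and DESeq2 called 1. Their median log2 fold changes were -0.01, 0.01 and -0.03, and the shares called were 3.08%, 4.62% and 0%, against the 2.68%, 6.86% and 8.56% of all genes. DESeq2 called 2 of the 65 with ACP7 OE and 7 with ACP7-7A OE against wild type. Without the 3 libraries that stood apart, 64 passed the filter on low counts. Of these, 2 rose and 14 fell with ACP7 OE against wild type (25%, beside 15% of all genes), 0 rose and 7 fell with ACP7-7A OE (10.9%, beside 10.7%), and 4 differed between the constructs (6.25%, beside 13.6%).

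Of 6 sensors and effectors (ire-1, pek-1, atf-6, atf-4, ckb-2 and manf-1), 0 passed in any comparison with all libraries. DESeq2 also called 0, and 0, 3 and 1 had an unadjusted p under 0.05 with ACP7 OE against wild type, ACP7-7A OE against wild type and between the constructs. ire-1, the sensor that splices xbp-1, had 131 to 149 CPM in wild type, 139 to 153 with ACP7 OE and 142 to 177 with ACP7-7A OE, with log2 fold changes against wild type of 0.05 (adjusted p = 0.76) and 0.17 (adjusted p = 0.095). The latter passed only without ACP7-7A OE library 4 (0.20, adjusted p = 0.049, against 0.049 to 0.31 over all settings). pek-1, the kinase sensor, was 60.3 CPM on average with ACP7 OE and 67.1 CPM with ACP7-7A OE (log2 fold change -0.16, adjusted p = 0.14), and passed without the 3 libraries that stood apart (-0.22, adjusted p = 0.022, against 0.022 to 0.32 over all settings). atf-6 had a log2 fold change of -0.18 with ACP7 OE (adjusted p = 0.31). atf-4, a transcription factor of the PEK-1 branch, had 15.4 to 19.9 CPM in wild-type libraries 1 to 4, 10.2 CPM in wild-type library 5 and 10.4 to 15.2 CPM with ACP7-7A OE. Its log2 fold change was -0.35 (adjusted p = 0.15). It passed without wild-type library 5 (-0.50, adjusted p = 0.008) and without the 3 libraries that stood apart (-0.33, adjusted p = 0.048), against 0.008 to 0.32 over all settings.

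Of 18 other folding and disulfide genes, 0 passed with ACP7 OE against wild type and between the constructs (3 and 2 at an unadjusted p under 0.05, 0 with DESeq2), and 1 rose with ACP7-7A OE. The count with ACP7 OE depended on the 3 libraries that stood apart, whose choice was one-sided. Without them, where 15% of all genes changed, 1 of 17 rose (Y49E10.4) and 9 fell, namely C14B9.2, T14G8.3, calu-1, cyn-5, dnj-20, dnj-7, fkb-3, fkb-5 and uggt-1. Their log2 fold changes ran from -0.40 for fkb-3 to 0.18 for Y49E10.4, and all of these but uggt-1 are named after their values were seen. In the same setting C14B9.2 and dnj-20 fell with ACP7-7A OE (-0.31 and -0.17), and 0 of the 17 differed between the constructs. The gene that rose with ACP7-7A OE in all libraries was ZK973.11, a thioredoxin-domain gene, with 55.9 to 59.6 CPM in wild type, 61.5 to 66.2 CPM with ACP7 OE and 62.7 to 77.8 CPM with ACP7-7A OE. Both overexpression groups lay above wild type with no overlap. Of all genes tested, 6.73% had no overlap with wild type with ACP7 OE and 5.04% with ACP7-7A OE, in either direction. The log2 fold change was 0.24 with ACP7-7A OE (adjusted p = 0.021), lost without wild-type library 1 or 3, without ACP7-7A OE library 1 or 2, and, at 0.14, without the 3 libraries that stood apart. It was 0.15 with ACP7 OE (adjusted p = 0.21). uggt-1, for the glucosyltransferase that returns unfolded glycoproteins to calreticulin and calnexin, had 112 to 127 CPM in wild type, 100 to 112 CPM with ACP7 OE and 107 to 132 CPM with ACP7-7A OE. Its log2 fold change was -0.19 with ACP7 OE (adjusted p = 0.085), or -0.24 without wild-type library 5 (adjusted p = 0.012) and without the 3 libraries that stood apart (adjusted p = 0.00058), against 0.00058 to 0.18 over all settings. erp-44.1 differed between the constructs by -0.15 (adjusted p = 0.13), or by -0.19 without ACP7 OE library 1 (adjusted p = 0.033, against 0.033 to 0.28 over all settings).

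Of 15 tested genes of translocation into the ER and N-glycosylation, 0 passed in any comparison with either tool (0, 2 and 1 at an unadjusted p under 0.05). trap-2, for a translocon-associated subunit, was lower with ACP7 OE than in wild type without the 3 libraries that stood apart (-0.16, adjusted p = 0.0085). Their log2 fold changes lay between -0.08 and 0.10 with ACP7 OE and between -0.11 and 0.14 with ACP7-7A OE. stt-3, the catalytic subunit of the oligosaccharyltransferase, had a mean of 401 CPM in wild type, 394 CPM with ACP7 OE and 441 CPM with ACP7-7A OE (log2 fold change between the constructs -0.16, adjusted p = 0.093). That difference passed without ACP7 OE library 1 (-0.22, adjusted p = 0.0055, against 0.0055 to 0.19 over all settings). Of 2 other oligosaccharyltransferase subunit genes, ostb-1 had a log2 fold change of 0.10 with ACP7 OE against wild type (adjusted p = 0.37). For ribo-1 it was 0.11 with ACP7-7A OE against wild type (adjusted p = 0.16). dnj-29, of the Sec63 type, had a log2 fold change of -0.07 with ACP7 OE (adjusted p = 0.50).

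Of 15 genes of ER-associated degradation, which removes misfolded proteins to the proteasome, 0 passed in edgeR in any comparison (1, 4 and 3 at an unadjusted p under 0.05). DESeq2 called 3 with ACP7-7A OE against wild type (cdc-48.1, cdc-48.2 and ufd-1), beside 1688 of the 15725 genes tested. In that comparison all 15 point estimates were above 0, with a median log2 fold change of 0.12. The germline and oocyte markers had a median of 0.24 in that comparison, with 7 of 15 passing, all higher, and their part was not tested. cdc-48.2, for the AAA ATPase that extracts proteins from the ER, had 360 to 425 CPM in wild type and 403 to 500 CPM with ACP7-7A OE (log2 fold change 0.21, adjusted p = 0.054). Its cofactor gene ufd-1 had 110 to 126 and 116 to 162 CPM (log2 fold change 0.22, adjusted p = 0.056). ACP7-7A OE libraries 1 and 2 held the highest values of both genes, 472 and 500 CPM for cdc-48.2, where libraries 3 to 5 had 403 to 427 CPM, and 142 and 162 CPM for ufd-1, where libraries 3 to 5 had 116 to 128 CPM. cdc-48.2 passed in 10 of 24 settings (adjusted p = 0.011 to 0.16) and ufd-1 in 9 (0.02 to 0.19), for both among them the other scalings and filters and the fit without wild-type library 5. Neither passed without the 3 libraries that stood apart (0.15, adjusted p = 0.055, and 0.12, adjusted p = 0.13), where 0 of the 15 genes did. In that setting ufd-1 was higher with ACP7 OE than in wild type (0.17, adjusted p = 0.0076), against 0.15 in all libraries (adjusted p = 0.30). The derlin gene cup-2 had a log2 fold change of 0.06 with ACP7 OE (adjusted p = 0.60).

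Of 4 collagen hydroxylase genes, which act with pdi-2 or beside it in the ER, let-268, for a lysyl hydroxylase, fell with ACP7 OE from 20.2 to 24.3 CPM in wild type to 16.7 to 19.3 CPM. Its log2 fold change was -0.33 (SE 0.090, adjusted p = 0.047). The groups did not overlap, as for 6.73% of all genes tested in that comparison. The call was lost when any of 8 libraries was left out, wild-type library 1, 3 or 4 or any of the 5 ACP7 OE libraries. It was also lost with RLE or upper quartile scaling, without a filter on low counts, with the 50-count filter and with a replicate block, at log2 fold changes from -0.38 to -0.31 over all settings (adjusted p = 0.0041 to 0.13, called in 11 of 24). When the 3 libraries that stood apart were left out, 3 of the 4 genes were lower with ACP7 OE than in wild type, let-268 (-0.36), dpy-18 (-0.35) and phy-2 (-0.27). In that setting 15% of all genes changed between these groups. phy-2 with ACP7-7A OE and dpy-18 between the constructs, both for prolyl 4-hydroxylases, stood at -0.26 (adjusted p = 0.21) and -0.25 (adjusted p = 0.11) on the log2 scale. dpy-18 passed between the constructs without the 3 libraries that stood apart (-0.29, adjusted p = 0.036) and without ACP7 OE library 1 (adjusted p = 0.036, against 0.036 to 0.25 over all settings).

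Of 15 abu genes, a family named for its activation when the unfolded protein response is blocked, 7 passed the filter on low counts. abu-14 fell with ACP7-7A OE, from 13.4 to 25.9 CPM in wild type to 9.02 to 12.4 CPM. The log2 fold change was -0.96 (SE 0.148, adjusted p = 0.00084). It also fell with ACP7 OE, to 12.1 to 16.3 CPM (log2 fold change -0.54, adjusted p = 0.049, a call lost without any of 10 libraries, every one but wild-type library 5 and ACP7-7A OE libraries 1 to 4). That call was also lost with RLE or upper quartile scaling, the 50-count filter and a replicate block, and it was made in 10 of 24 settings (adjusted p = 0.00017 to 0.16). abu-11 fell with ACP7-7A OE from a mean of 2.67 to 1.55 CPM (log2 fold change -0.79, adjusted p = 0.041, lost without any of 7 libraries, wild-type libraries 1 to 4 or ACP7-7A OE libraries 3 to 5). It was also lost without a filter on low counts, with a replicate block and with only the 2 groups fitted. Of 24 settings 14 made it (adjusted p = 0.0034 to 0.094). The fall of abu-14 with ACP7-7A OE was called in all 24. Without the 3 libraries that stood apart 8 abu genes passed the filter on low counts and 4 fell with ACP7-7A OE, abu-14 (-1.14), abu-11 (-1.16), abu-13 (-0.79) and abu-8 (-0.83), while abu-11 and abu-14 were higher with ACP7 OE than with ACP7-7A OE (0.91 and 0.46). In that setting 10.7% of all genes changed with ACP7-7A OE against wild type and 13.6% differed between the constructs. Wild-type library 5 was the lowest of its group for abu-11 and abu-14. Pharynx markers, of which all 10 had counts in every library, summed to 106 CPM in wild-type library 5 and 160 to 164 CPM in the other wild-type libraries, 91.6 to 150 CPM with ACP7 OE and 110 to 199 CPM with ACP7-7A OE, and their part in the abu levels was not tested.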

How the data were processed

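Poly(A) RNA of about 1000 worms per library was sequenced as read pairs of 150 nucleotides, per the labels' protocols. The deposited values are raw counts per gene, which the authors obtained from featureCounts (version 2.0.6, per the file headers). The submitters' processing notes also name STAR, Trim Galore and the build WBcel235. The strand, multi-mapping and mate settings used were not given in the sources used here. Between 81.3% and 86.1% of deposited counts from 5 to 39 were even, so mates appear to be counted separately, and intervals that treat counts as independent were not used. Levels per kb used the exonic length deposited beside each count.

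Counts were tested in R 4.3.3 with edgeR 4.0.16 (TMM, filterByExpr, robust quasi-likelihood test, 15 libraries in 1 fit, Benjamini-Hochberg adjustment over 15725 genes). DESeq2 1.42.0, other scalings, filters, library sets and a replicate block were alternatives. The procedure was tested on simulated data with changes larger than any of the 10 ER genes, so that run did not gauge changes of their size. Same-numbered libraries did not deviate together, so the block is an alternative only. Members, lists and settings were chosen with earlier results of these data known. Named genes are the 10 members, F21A3.11, WormScarlet, up to 4 genes per list and comparison past the threshold by smallest p (2 where none passed), and 10 genes by likeness to hsp-4. Outside this rule, trap-2, abu-8, abu-13 and the folding genes other than uggt-1 listed from the fit without the 3 libraries were named after their values were seen. Promoter and protein sequences were not used here.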

Additional observations from a re-analysis of the deposited data

Results flagged for a closer look

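Of 30 sets of 5 libraries (10 ER genes in 3 groups), 8 held a library far from the other 4 by Dixon's gap test. That test flags about 1 in 20 independent sets by chance. These sets share their libraries and are not independent, so the 8 cannot be set against that rate. ACP7 OE library 1 was the highest of its group for hsp-3 (680 CPM), hsp-4 (425 CPM), pdi-1 (450 CPM), pdi-6 (218 CPM) and crt-1 (976 CPM). It was also the largest library, with 58077047 counts, and its part in these values was not tested. Wild-type library 5 was the lowest of its group for pdi-2 (515 CPM) and pdi-6 (178 CPM). ACP7-7A OE library 1 was the highest of its group for dnj-27 (45.1 CPM). Without it the difference in dnj-27 between the constructs was -0.25 on the log2 scale.

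The change of dnj-27 against wild type differed between the constructs (log2 difference -0.32, edgeR adjusted p = 0.0074), with log2 fold changes of -0.22 with ACP7 OE and 0.10 with ACP7-7A OE. The constructs also differed in transgene RNA, with means of 610 CPM with ACP7 OE and 1364 CPM with ACP7-7A OE, so activity, dose and strain cannot be told apart.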

How the results depend on the processing

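Each result was recomputed in 24 other settings, 15 of them without a single library. Over the 10 ER genes and 3 comparisons, 680 values kept their direction and side of the threshold, 17 gained a call, 9 lost one and 14 changed sign. The count of all genes changed against wild type with ACP7 OE was 422, and became 723 with DESeq2, 264 when 50 counts in 5 libraries were required, 1182 with only the 2 groups fitted and 2434 without the 3 libraries that stood apart (ACP7-7A OE 1 and 2 and wild type 5). With ACP7-7A OE it was 1079, and became 1688 with DESeq2 and 1747 without those 3 libraries. Between the constructs it was 1346, and 2212 without them. Leaving out single libraries gave 256 to 794, 402 to 2248 and 883 to 1901. ER genes changed were then 0 to 1, 0 to 1 and 1 to 4 of 10. They were 1 (hsp-3) with ACP7 OE when only its 2 groups were fitted, and without the 3 libraries 6 against wild type and 5 between the constructs. Without the 3 libraries the log2 fold change turned to 0.04 for hsp-3 and -0.04 for enpl-1 (ACP7-7A OE against wild type) and 0.06 for hsp-4 (between the constructs). Without single libraries, values near 0 crossed it: hsp-3 from -0.07 to 0.02, pdi-2 from -0.06 to 0.06, pdi-6 from -0.08 to 0.01 and crt-1 from -0.03 to 0.04 with ACP7-7A OE, and hsp-4 from -0.05 to 0.02 between the constructs. The causes were not tested.

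Replicate numbers did not pair the libraries: deviations of same-numbered libraries correlated at -0.154 to 0.121, and 1 of 15 libraries correlated best with its own number. With the replicate number as a block, 633 genes and 0 ER genes changed with ACP7-7A OE, where pdi-1 had an adjusted p of 0.059. Of the 10 ER genes it changed no other call, and of the named pathway genes it removed those of let-268 (adjusted p = 0.067) and abu-14 (0.078) with ACP7 OE and of abu-11 (0.073) with ACP7-7A OE. Depth limited little here, since each ER gene had at least 1224 counts in every library, and the spread between libraries set the precision.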
